A study of Mus musculus with 56 samples.

Results

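The comparison described here is the knockdown of Mbnl1 in N2a cells, a mouse neuroblastoma line that grows as neuron-like cells and can be pushed towards neurite outgrowth. It covers 6 of the 56 RNA sequencing libraries of a study of FMRP, the RNA-binding protein encoded by Fmr1, and of MBNL1. In 3 libraries the cells received small interfering RNA (siRNA) against Mbnl1 together with the empty plasmid pcDNA (siMbnl1 pcDNA). In the 3 control libraries they received a non-targeting siRNA with the same plasmid (siNT pcDNA). All libraries come from cells transfected with siRNA and plasmid together by Lipofectamine 3000, so both groups share the transfection and the plasmid. From the same experiment, 3 libraries with siRNA against Fmr1 and pcDNA (siFmr1 pcDNA) and 3 with siRNA against Mbnl1 and a plasmid for FLAG-tagged cytosolic MBNL1 (siMbnl1 cMBNL1) are used for comparison, and 3 more with siFmr1 and FLAG-tagged nuclear MBNL1 appear in a plot. The members are all genes of the deposited table of normalized counts and all exon events of the matching splicing tables. No label says that replicates were separate cultures, so p-values measure the spread between these libraries, which may be technical.

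MBNL1 is a zinc finger protein that binds RNA at the letters YGCY (Y is C or T), in exons and in the introns beside them. In the nucleus it raises or lowers the inclusion of alternative exons depending on where it binds, and it moves many transcripts from fetal towards adult forms. Cytoplasmic MBNL1 also binds 3′ ends of mRNAs and takes part in their localization and decay. Its close relatives are MBNL2 and MBNL3, and loss of MBNL activity to expanded CUG repeats is the known mechanism of myotonic dystrophy.

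The 3 siNT libraries held about 29386796 to 31987024 reads and the 3 siMbnl1 libraries about 26817116 to 42351794, estimated from the normalized value that 1 read was worth. Spread between replicates was wider in the controls: the median standard deviation (SD) of log2 values over genes was 0.236 in siNT pcDNA against 0.112 in siMbnl1 pcDNA and 0.0937 to 0.11 in the other 3 groups. The second siNT library stood apart on short transcripts. Over the quartile of genes with the shortest exon length (174 to 2489 bases), its median was 0.26 below the siNT mean on the log2 scale. The other two siNT libraries were 0.17 and 0.10 above that mean, and the siMbnl1 libraries 0.23, 0.20 and 0.15 above it. Of 20 markers of sympathoadrenal neuroblastoma cells 19 were measured at a mean of 1 or more. Their summed level was 119200 to 140264 normalized counts in siNT and 106866 to 123609 in siMbnl1. The neurofilament genes Nefl and Nefm were low. Markers of other cells were far lower: fibroblast markers summed to 195 to 238 in siNT and 252 to 291 in siMbnl1 (Lum at 0), glial markers to 1048 to 1220 and 777 to 879 (Sox10 and Foxd3 at 0), immune markers to 70.5 to 94.7 and 48.6 to 60.2 (Adgre1 and Hbb-bs at 0), and epithelial markers to 92.7 to 155 and 140 to 145 (Krt5 and Esrp1 at 0).

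Mbnl1 mRNA was lower in each siMbnl1 pcDNA library than in each siNT library. It stood at 4410, 5017 and 3759 normalized counts in siNT and at 1408, 1538 and 1509 in siMbnl1. The groups were far apart. The log2 fold change (siMbnl1 pcDNA minus siNT pcDNA, on log2(value + 1)) was -1.56 with a standard error (SE) of 0.12 (limma, Benjamini-Hochberg adjusted p = 5.35e-04, n = 3 per group). Its paralog Mbnl2, which shares many target exons, was not called: 4084 ± 89.6 (SD, n = 3) in siNT and 3796 ± 88.7 in siMbnl1, a log2 difference of -0.11 (limma adjusted p = 0.421). Fmr1 stood at 3093 ± 443 and 2922 ± 164 (log2 difference -0.07, limma adjusted p = 0.698), whereas the siFmr1 pcDNA libraries held 594 ± 15.3. With the cytosolic MBNL1 plasmid, Mbnl1 read 19762 ± 3323, a value in which plasmid reads and the cell's own reads were not separated.

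Exon usage is described first. In the deposited rMATS tables, 51532 skipped-exon events were covered by 20 or more junction reads, averaged over replicates, in each group. Inclusion of an exon (the percentage of transcripts that contain it, from junction reads scaled for the length of each form) changed in 276 of them, 0.536% of those tested, at a quasi-binomial adjusted p under 0.05 and a difference of at least 10 percentage points. Inclusion was higher in siMbnl1 in 86 events (0.167%) and lower in 190 (0.369%). They lay in 230 genes and 269 distinct exons. At an unadjusted p under 0.05 there were 7184 events, and 44 of the 276 were called in each of the 6 fits that left 1 library out. These 44 are the firmest. For each other skipped exon named below as called with its values, the libraries whose omission ended its call are given. They are named by their position in the deposited replicate lists, which carry no replicate numbers.

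The exons called as less included after Mbnl1 knockdown included homologous exons of Mapt and Map2. Mapt encodes tau and Map2 encodes the dendritic microtubule-associated protein MAP2. In both, a coding exon of 93 bases carries a microtubule-binding repeat, and its inclusion adds that repeat to the protein. The Map2 exon is shown as the example of such a repeat exon, from GENCODE transcripts on GRCm38. Capitals mark matches to YGCY in the sense strand, the only motif searched in exons, and a second match may overlap the first. It lies at chr1:66431527-66431619 on the + strand.
Map2 93-base exon: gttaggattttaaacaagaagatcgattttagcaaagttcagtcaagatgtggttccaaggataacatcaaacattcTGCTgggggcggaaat
The Map2 exon holds 1 such motif, where 71.2% of tested exons of this length hold at least 1. Introns, where MBNL1 also binds, were not read here.

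Inclusion of the Mapt exon was 52.3%, 67.2% and 60.2% in siNT and 18.9%, 28.5% and 30.2% in siMbnl1. Each siMbnl1 library lay below each siNT library. The difference was -34.0 points (quasi-binomial adjusted p = 1.71e-06) and was called in all 6 fits that left 1 library out. Inclusion of the Map2 exon was 62.5%, 69.4% and 62.3% in siNT against 20%, 38.1% and 18.8% in siMbnl1. The difference was -39.1 points (quasi-binomial adjusted p = 5.13e-04), and the call was lost without the first or the third siMbnl1 library. Mapt changed at other exons too. An exon of 87 bases near its 5′ end, one of those that add an N-terminal insert to tau, was included at 75.4% ± 5.97 (SD, n = 3) in siNT and 43.7% ± 9.14 in siMbnl1 in the event with the larger shift of 2 called for it. The quasi-binomial adjusted p was 4.47e-04, and the call was lost without the second siMbnl1 library. At the gene level Mapt was 3431 ± 390 in siNT and 3858 ± 577 in siMbnl1 (limma adjusted p = 0.42), so the exon shifts came without a called change in total Mapt. Map2 fell from 1067 ± 64.3 to 834 ± 4.78 (log2 difference -0.35, limma adjusted p = 0.0405), a call lost when the third siNT library or any of the siMbnl1 libraries was left out.

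Further exons lost in siMbnl1 lay in genes of adhesion, transport and transcription. Itga6 encodes the laminin-binding integrin α6, and its penultimate exon of 130 bases (chr2:71853534-71853663) sets which cytoplasmic tail the integrin has. Inclusion was 67.5%, 55.6% and 67.7% in siNT and 35.0%, 27.7% and 32.9% in siMbnl1, with no overlap. The difference was -31.7 points (quasi-binomial adjusted p = 9.73e-07), called in all 6 fits. Spag9 encodes JIP4, a scaffold for JNK signalling and motor proteins. Its exon of 39 bases (chr11:94113263-94113301) was included at 40.4%, 49.1% and 47.1% in siNT and at 26.8%, 22.9% and 24.6% in siMbnl1, a difference of -20.8 points (quasi-binomial adjusted p = 1.11e-05), also called in all 6 fits. Tead1 encodes a DNA-binding partner of the Hippo pathway coactivators. Its exon of 63 bases (chr7:112841888-112841950) was at 33.5% ± 6.36 in siNT and 10.9% ± 5.26 in siMbnl1 (quasi-binomial adjusted p = 0.0112), a call lost without the first or second siMbnl1 library. Tcf3 encodes the E-proteins E12 and E47, basic helix-loop-helix factors made by alternative exons. Its exon of 224 bases was at 78.6% ± 12.3 and 41.5% ± 4.13 (quasi-binomial adjusted p = 6.19e-05), a call lost without the first siMbnl1 library. The Spag9 and Tead1 exons are printed as examples of coding exons lost in siMbnl1.
Spag9 39-base exon: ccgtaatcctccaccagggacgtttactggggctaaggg
Tead1 63-base exon: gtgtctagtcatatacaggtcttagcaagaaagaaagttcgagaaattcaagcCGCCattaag
Spag9 has no YGCY letters in the exon and Tead1 has 1 match, where 33.7% and 52% of tested exons of those lengths hold at least 1.

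The exons gained in siMbnl1 were shorter. Of 325 tested exons of 27 bases or fewer, 25 were more included and 4 less included. Thus 8.92% were called, against 0.538% of exons of 52 to 150 bases. Over all lengths, 269 of 39046 distinct tested exons were called. Among 25447 exons of 52 to 150 bases, 28 were higher and 109 lower, and among 11350 longer exons 14 were higher and 63 lower. The median length was 51 bases for gained, 131 for lost and 118 for uncalled exons. Of gained exons 73 of 85 (85.9%) had a length that is a multiple of 3, which keeps the reading frame, against 90 of 184 lost exons (48.9%) and 38.0% of uncalled exons. Gained exons began at a median inclusion of 43.6% in siNT, lost exons at 81.1% and uncalled exons at 99.6%. These shares describe the exons, and exons within a gene share reads.

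**Figure D1:**
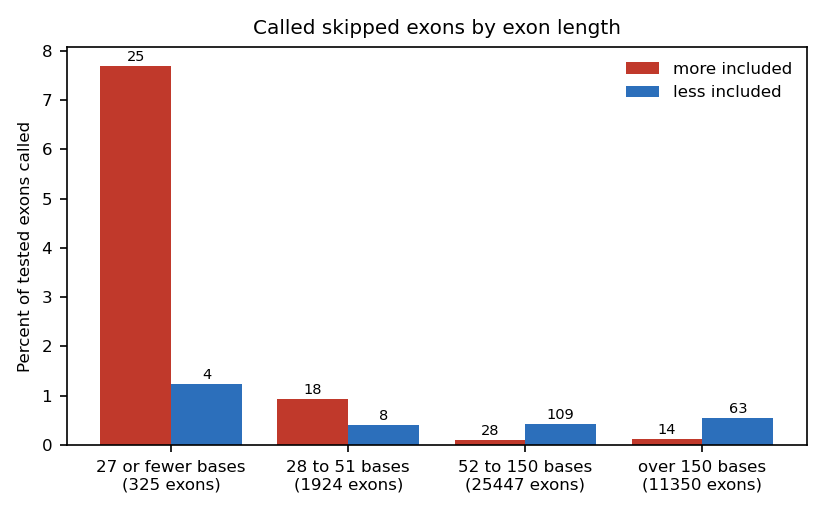
Percentage of tested skipped exons called as more included (red) or less included (blue) in siMbnl1 pcDNA than in siNT pcDNA, by exon length on the horizontal axis, with the number of called exons above each bar. Exons of 27 bases or fewer had 25 calls of gain and 4 of loss, while exons of 52 to 150 bases had 28 and 109.

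Rps24 was the clearest gain. Its microexon of 18 bases (chr14:24494052-24494069) near the 3′ end of this ribosomal protein gene is included in some tissues and skipped in others. Inclusion was 18.8%, 24.7% and 24.8% in siNT and 66.6%, 62.7% and 67.4% in siMbnl1, 42.8 points higher (quasi-binomial adjusted p = 2.27e-14, called in all 6 fits). Epb4.1l3 encodes a protein 4.1 family member that ties membrane proteins to spectrin and actin. Its exon of 36 bases (chr17:69273882-69273917) stood at 24.4%, 18.5% and 22.3% in siNT and at 52.1%, 69.5% and 64.4% in siMbnl1 (40.3 points, quasi-binomial adjusted p = 1.92e-08, all 6 fits). In both genes every siMbnl1 library was above every siNT library. Mast2 encodes a microtubule-associated kinase. Its exon of 21 bases (chr4:116333413-116333433, - strand) rose from 13.9% ± 2.13 to 49.7% ± 1.83 (quasi-binomial adjusted p = 3.62e-06, all 6 fits). Sptan1 encodes the spectrin α chain of the neuronal membrane skeleton. Its exon of 15 bases (chr2:30014158-30014172) went from 41.3%, 46.1% and 42.5% to 60.9%, 55.6% and 63.4% (16.7 points, quasi-binomial adjusted p = 2.04e-05, all 6 fits). A second Sptan1 exon of 60 bases went from 61.1% ± 6.46 to 77.0% ± 3.26 (quasi-binomial adjusted p = 0.00209, lost without the first or second siMbnl1 library). St7 had an exon of 69 bases that rose from 38.7% ± 15.2 to 82.3% ± 4.82 (quasi-binomial adjusted p = 2.16e-05), a call lost without the first or second siMbnl1 library. The 4 shortest of these exons are shown because their small size is what sets the gained group apart.
Rps24 18-base exon: aaatgaaatacctagcag
Epb4.1l3 36-base exon: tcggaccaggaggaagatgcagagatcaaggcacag
Mast2 21-base exon: ccatggccacagaacagacag
Sptan1 15-base exon: ctttccaagctgttg
None of the 4 holds YGCY. The Rps24 exon lies only partly in coding sequence in the transcript used, and the other 3 lie wholly within it. Counted over both classes, motif density was 1.65 per 100 bases in gained exons, 1.65 in lost exons and 1.53 in uncalled ones. With their shorter length, 54.2% of gained exons held at least 1 match against 82.5% of lost and 75.9% of uncalled exons.

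Other microexons, chosen for mention after their values were seen because their calls held in all 6 fits, were those of Tmem184b (21 bases, 9.79% to 35.4%), Eif4g1 (21 bases, 17.5% to 40.5%), Dctn1 (21 bases, 4.62% to 23.0%) and Atp6v0a1 (18 bases, 80.5% to 96.0%). Eif4g1 encodes the scaffold of the cap-binding translation initiation complex, Dctn1 the largest dynactin subunit, and Atp6v0a1 a subunit of the vesicular proton pump. Trappc13, a component of a vesicle tethering complex, went the other way, with its exon of 18 bases falling from 54.2% to 30.3% in all 6 fits. Macf1 (18 bases, 69.4% ± 8.35 to 91.9% ± 3.67) and Clasp1 (24 bases, 52.2% ± 2.55 to 73.4% ± 0.206), both encoding proteins that link microtubules to the cell cortex, rose in the 6-library fit. Both calls were lost when any of the siMbnl1 libraries was left out, and that of Clasp1 also without the second siNT library.

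Genes known from other work to carry MBNL-dependent exons held 22 called events of 386 tested (5.70% against 0.536% of all), 12 higher and 10 lower. Among the genes were Map4k4, Ank2, Sptan1, Mapt, Fn1, Clasp1, Tead1, Macf1, Bin1, Spag9 and Itga6. Mapt and Map2 made up all 6 called events of 97 in the list of neuronal cytoskeleton genes. Among 452 events of splicing regulator genes, 5 were called (1.11%). They included 2 events of Hnrnpa2b1, which encodes an hnRNP protein that itself regulates splicing. Its exon of 120 bases rose from 53.6% ± 1.71 to 66.6% ± 1.52 (quasi-binomial adjusted p = 1.02e-08, all 6 fits). No event of a cholesterol, fatty acid or NRF2 list gene was called. In these 3 lists 122, 104 and 122 events were tested with the quasi-binomial model.

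Mbnl1 and Mbnl2 each have an exon of 54 bases that promotes nuclear localization of the protein, and MBNL proteins are known to repress it in their own transcripts. The sequences of the pair are identical at 46 of 54 bases (85.2%).
Mbnl1 54-base exon: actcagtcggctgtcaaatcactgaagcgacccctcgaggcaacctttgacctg
Mbnl2 54-base exon: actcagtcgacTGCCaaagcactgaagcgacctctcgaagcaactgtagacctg
The Mbnl1 exon (chr3:60614683-60614736) stood at 64.3%, 63.4% and 45.6% in siNT and at 72.5%, 68.4% and 80.0% in siMbnl1. The groups did not overlap, but the difference of 15.9 points was not called in the 6-library fit (quasi-binomial adjusted p = 0.197). A call appeared in 2 of the 6 fits that left 1 library out, without the first or without the second siNT library. The difference rested on as few as 87 junction reads in a siMbnl1 library. The Mbnl2 exon (chr14:120395712-120395765) was at 40.3% ± 1.02 and 48.1% ± 4.08, a difference of 7.79 points that was not called (quasi-binomial adjusted p = 0.138).

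The siFmr1 and cytosolic MBNL1 libraries place these exons among the other groups of the experiment. Both knockdowns share the siNT libraries as controls, so levels are given side by side, and siMbnl1 pcDNA was tested against siFmr1 pcDNA directly, without the siNT libraries. That direct test was added after the data had been seen. Of 33494 exon events in both tables with enough reads, 78 were more included in siMbnl1 than in siFmr1 (0.233%) and 591 less included (1.76%). Several of the exons lost after Mbnl1 knockdown were above the siNT mean in siFmr1. The Mapt exon of 93 bases stood at 73.6% ± 4.24 in siFmr1 (difference -47.8 points, quasi-binomial adjusted p = 2.86e-55), that of Itga6 at 79.7% ± 3.97 (adjusted p = 2.65e-54) and that of Spag9 at 61% ± 3.56 (adjusted p = 4.13e-36). Map2, Tead1 and Tcf3 exons were also lower in siMbnl1 than in siFmr1 in this quasi-binomial test (adjusted p = 1.58e-07, 8.48e-04 and 3.64e-12). Not every lost exon was above siNT in siFmr1: that of Tcf3 stood at 72.5% in siFmr1 against 78.6% in siNT, a difference that was not tested.

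The gained exons were placed differently. Rps24 inclusion was 74.2% ± 0.94 in siFmr1, above the 65.6% of siMbnl1, and the difference of -8.63 points was under the 10 points needed for a call. Epb4.1l3 was at 53.8% ± 4.07 in siFmr1 (quasi-binomial adjusted p = 0.182 against siMbnl1), St7 at 74.8% ± 0.438 (adjusted p = 0.347) and the 15-base Sptan1 exon at 60.7% ± 0.288 (adjusted p = 0.974). For these 4 exons the siNT libraries were the low ones and both knockdowns were high. Mast2 was between, at 33.1% ± 3.57 in siFmr1, and was higher in siMbnl1 (16.6 points, quasi-binomial adjusted p = 0.0286). Of 292 exons of 27 bases or fewer in the direct test, 9 were higher in siMbnl1 and 13 lower, where the comparison with siNT had 25 and 4 of 325. The Mbnl1 exon of 54 bases was 38.7 points higher in siMbnl1 than in siFmr1 (73.7% against 35.0%, quasi-binomial adjusted p = 9.19e-13), and the Mbnl2 exon 15.6 points higher (48.1% against 32.5%, adjusted p = 1.88e-06).

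With the cytosolic MBNL1 plasmid, the lost exons lay between the siMbnl1 and siNT means for Mapt (40.9% ± 3.81), Itga6 (48.6% ± 2.30), Spag9 (39.4% ± 3.18), Tead1 (24.4% ± 6.05) and Tcf3 (48.4% ± 4.76). Map2 stood at 25.5% ± 3.49, next to the 25.6% ± 10.8 of siMbnl1 pcDNA. These differences from siMbnl1 pcDNA were not tested. The Mbnl1 exon of 54 bases was read at 0.364% in those libraries, where plasmid reads were not separated from the cell's own.

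**Figure D2:**
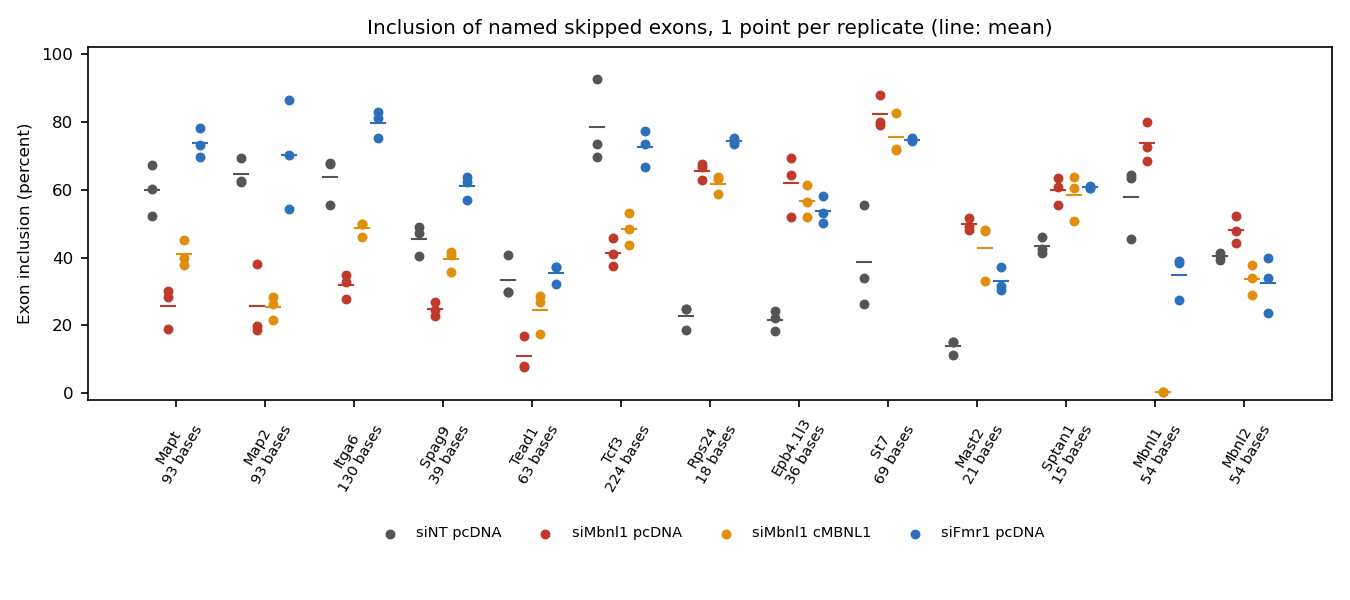
Inclusion (percent, vertical axis) of 13 skipped exons named in the text, with 1 point per library and a line at the group mean, in siNT pcDNA (grey), siMbnl1 pcDNA (red), siMbnl1 cMBNL1 (orange) and siFmr1 pcDNA (blue). For Mapt, Itga6 and Spag9 the red points lie below all others, while for Rps24, Epb4.1l3 and Sptan1 the grey points lie below all others.

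Other event types were few except for mutually exclusive exons. Of 11387 such events 330 were called (2.9%), 224 with more use of the first exon (1.97%) and 106 with less (0.931%), and this count fell to between 28 and 52 when any of the siMbnl1 libraries was left out and to 93 without the third siNT library. Mapt gave the largest: use of the first exon of a pair went from 72.6%, 57.5% and 73.0% to 14.2%, 20.3% and 27.2% (quasi-binomial adjusted p = 0.0201). Prune2 followed at 74.3% ± 6.62 and 31.2% ± 5.35 (quasi-binomial adjusted p = 0.0292). The calls of these Mapt and Prune2 events each held in only 2 of the 6 fits that left 1 library out. Alternative 3′ splice sites gave 8 calls of 1170 (0.684%), among them Pdlim5, whose protein links signalling enzymes to actin (74.6% ± 5.01 to 45.9% ± 6.64, quasi-binomial adjusted p = 2.44e-05). Alternative 5′ splice sites gave 6 of 839 (0.715%), with the zinc transporter gene Slc39a11 rising from 25.5% ± 4.37 to 52.3% ± 6.31 (quasi-binomial adjusted p = 0.0010). Retained introns gave 7 of 256 (2.73%), with Bicd2, a dynein adaptor, rising from 18.8% ± 4.57 to 42.6% ± 0.869 (quasi-binomial adjusted p = 2.94e-04). For 3′ and 5′ sites and introns the calls under leave-one-out ranged from 1 to 12.

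Genes with a changed exon were called at the gene level at about the rate of other genes. Of 230 genes with a called exon 41 (17.8%) were called at the gene level, against 1600 of 8781 other genes with a tested exon (18.2%).

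At the gene level, 16047 genes had a mean of at least 1 normalized count, and 2428 of them (15.1%) differed between siMbnl1 pcDNA and siNT pcDNA at a limma adjusted p under 0.05. Of these 1267 were higher (7.9%) and 1161 lower (7.23%), and 511 passed a log2 fold change of 1 in either direction. The count was 461, 499 and 801 when siMbnl1 library 1, 2 or 3 was left out, and 3287, 3921 and 1413 without siNT library 1, 2 or 3. Groups did not overlap in 6078 genes (37.9%). Only 405 genes, 222 higher and 183 lower, were called in all 6 of these fits. Genes given below with a log2 fold change belong to those 405 unless a library is named, which is not so of all genes listed by name alone. In the direct test against siFmr1 pcDNA, 3831 of 16215 genes were higher in siMbnl1 (23.6%) and 3834 lower (23.6%).

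Serpinb9g, an intracellular serine protease inhibitor gene, showed the largest rise among genes with a mean of 50 or more. It went from 16.8, 13 and 8.36 normalized counts to 120, 162 and 128, a log2 fold change of 3.37 (SE 0.31, limma adjusted p = 9.51e-04), and siFmr1 stood at 10.6 ± 6.09. The monocyte chemoattractant gene Ccl2 went from 66.4, 59.8 and 65.5 to 390, 343 and 468 (2.62, limma adjusted p = 2.62e-04). In siFmr1 it stayed at 74.2 ± 9.45 and with cytosolic MBNL1 it was at 309 ± 38.0. Its neighbour in the chemokine cluster, Ccl7, moved from 7.38 ± 2.10 to 46.0 ± 17.4 (2.46, limma adjusted p = 0.0061). Prokr1, a prokineticin receptor gene, rose from 229, 250 and 223 to 982, 1104 and 989 (2.13, limma adjusted p = 2.34e-04), with siFmr1 between at 515 ± 26.3. The remaining large rises were in Mt1 (2.74), a metallothionein gene, and Eaf2 (2.67), Cox6a2 (2.34), Spag16 (2.30), Efcab6 (2.24) and Serpinf1 (2.12). Acta2 (2.48), Myl9 (2.27), Myl1 (2.16) and Tnnt2, which encode proteins of the contractile apparatus, were also among them. They do not stand for a list: of 31 actin cytoskeleton and contractile genes, which include Acta2 and Myl9, 4 rose (12.9%) and 1 fell (3.23%), with a median of 0.12. Tnnt2, the cardiac troponin T gene, went from 295, 237 and 263 to 1111, 966 and 1159 (2.02, limma adjusted p = 2.62e-04). Acta2 lost its call without the first siMbnl1 library.

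Neat1 and Malat1, neighbouring genes of abundant nuclear noncoding RNAs, were among the largest falls. Neat1, the scaffold RNA of paraspeckles, went from 10439, 8378 and 10591 normalized counts to 2799, 3009 and 2793 (-1.77, SE 0.11, limma adjusted p = 2.62e-04). Malat1, which marks nuclear speckles, went from 5350, 7498 and 6729 to 1869, 2019 and 2125 (-1.69, SE 0.13, limma adjusted p = 5.35e-04). Both were lower in siMbnl1 than in siFmr1, where they stood at 4600 ± 218 and 4187 ± 534 (limma adjusted p = 8.9e-08 and 4.17e-08 for the direct difference). Ltbp3, which encodes a latent TGF-beta binding protein, fell from 990, 1370 and 1438 to 346, 414 and 382 (-1.72, limma adjusted p = 9.51e-04). Mst1 (-2.06), encoding macrophage stimulating protein, Crhbp (-2.02), Poteg (-1.75), Gm4890 (-1.68), the taste receptor gene Tas1r3 (-1.62), 6430584L05Rik (-1.60) and Serpinb9b (-1.59) followed. Gm28042 had the largest fitted fall (-4.24), lost without the third siNT or the first siMbnl1 library. Selenbp1 (-1.56) lost its call without the third siNT or the first or second siMbnl1 library.

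**Figure D3:**
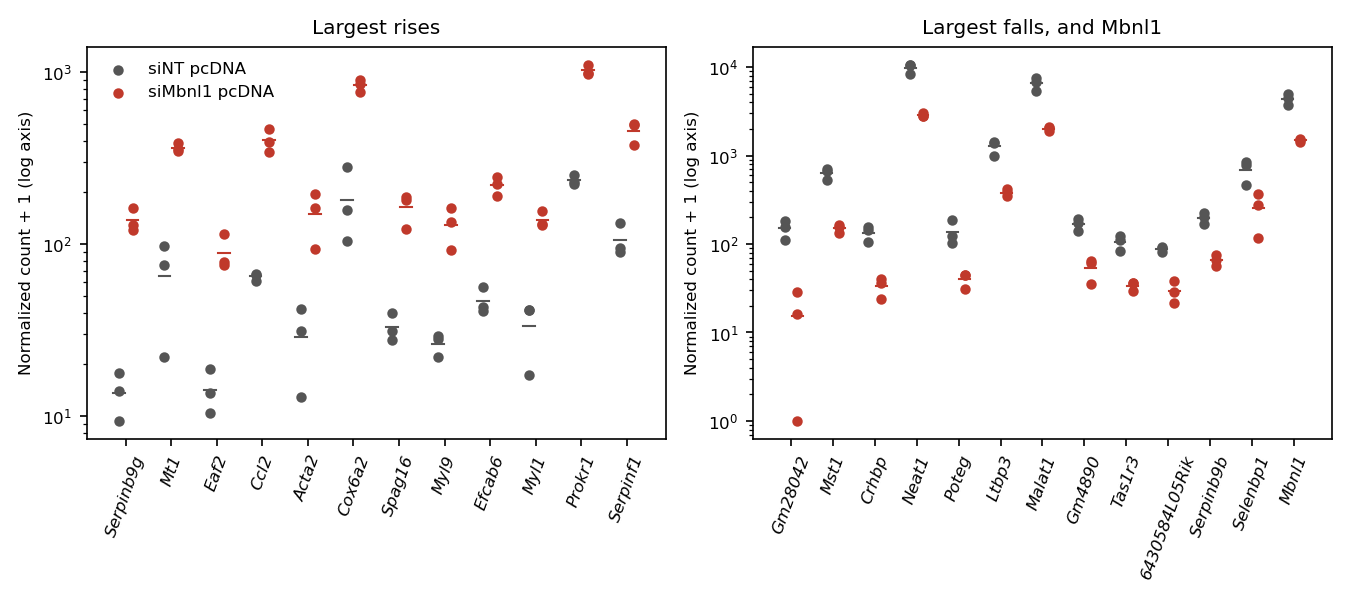
Normalized count + 1 per library on a log axis for the 12 genes with the largest rise (left) and the 12 with the largest fall, with Mbnl1 (right), in siNT pcDNA (grey) and siMbnl1 pcDNA (red), with a line at each group mean. For each gene the groups do not overlap, which the choice of genes required. Mbnl1 falls from a mean of 4396 to 1485.

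Across pathways, lipid synthesis genes were lower. Cholesterol synthesis uses enzymes under the transcription factor SREBP2, which is held inactive by INSIG1 when sterols are plentiful. Of 24 tested genes 13 fell and none rose (54.2% lower, against 7.23% of all genes), with a median log2 difference of -0.41 against 0.01 over all genes. Among the 13 were Hmgcs1, Fdft1, Sqle, Lss, Cyp51, Nsdhl, Hsd17b7, Sc5d, Dhcr7, Insig1 and Stard4, which include enzymes from the early steps to the final reductions. Of these 11, Nsdhl, Sc5d, Dhcr7 and Insig1 were called in all 6 fits, and each of the other 7 lost its call without at least 1 siMbnl1 library. Nsdhl fell from 1661, 1399 and 1663 to 852, 782 and 882 (-0.91, limma adjusted p = 0.0024). Dhcr7, the last reductase of the pathway, fell by 0.76 on the log2 scale from 3241, 3267 and 3496 to 1830, 1910 and 2196, and Insig1 by 0.77. The list median was -0.46, -0.44 and -0.39 in the 3 siMbnl1 libraries against -0.04, 0.01 and 0.01 in siNT. The number called was 4, 6 and 6 without siMbnl1 library 1, 2 or 3 and 12, 18 and 10 without siNT library 1, 2 or 3. Set against the same siNT libraries, the list median was -0.40 in siFmr1 pcDNA and -0.64 in siMbnl1 cMBNL1. In the direct test 9 genes were lower in siMbnl1 than in siFmr1 and 5 higher.

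Fatty acid synthesis and desaturation showed 8 lower of 18 tested (44.4%, against 7.23% of all genes) and 1 higher (5.56%, against 7.9%), with a median of -0.42. Scd2, the main stearoyl-CoA desaturase of neural cells, fell from 51475, 72476 and 63702 to 29119, 28329 and 34712 (-1.02, limma adjusted p = 0.00557). Fads2, the delta-6 desaturase gene, fell from 3272 ± 391 to 1788 ± 146 (-0.87, limma adjusted p = 0.00295). Scd1, Elovl5, Elovl6, Me1, Srebf1 and Acss2 were the other genes lower, and each of these 6 lost its call without siMbnl1 library 1 and without siMbnl1 library 2. Elovl6 (-0.57) kept it in the other 4 fits, Scd1 and Elovl5 also lost it without siMbnl1 library 3, Srebf1 and Acss2 without siNT library 3, and Me1 without either of those. Acacb, encoding the acetyl-CoA carboxylase of the mitochondrial surface, was higher (0.78, limma adjusted p = 0.0304), a call lost when the third siNT library or any of the siMbnl1 libraries was left out. Unlike the cholesterol list, this list was near the control level in siFmr1 (median -0.11), and the direct test had 10 genes lower in siMbnl1 and 2 higher. The number lower than siNT was 2, 2 and 5 without siMbnl1 library 1, 2 or 3 and 11, 11 and 5 without siNT library 1, 2 or 3.

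Glutathione and NRF2 target genes rose. NRF2 is the transcription factor that answers oxidants and electrophiles by raising detoxifying enzymes. Of 41 tested genes 15 were higher (36.6%, against 7.9% of all genes) and none lower, with a median of 0.32. By library, the list stood at 0.09, -0.25 and 0.08 in siNT and at 0.28, 0.27 and 0.31 in siMbnl1, relative to the siNT mean. The second siNT library, which was low on short transcripts, was thus the low one here too, and the median exon length of the list was 2013 bases against 4098 for all genes. The count was 8, 8 and 10 without siMbnl1 library 1, 2 or 3 and 16, 15 and 12 without siNT library 1, 2 or 3. The class alpha glutathione transferase genes showed it most clearly. Gsta4 went from 6.66, 3.99 and 6.24 to 63, 82.1 and 77.9 normalized counts (3.52, limma adjusted p = 9.95e-04). Gsta3 went from 2.31, 5.78 and 2.17 to 33.6, 51.6 and 38.9 (3.33, limma adjusted p = 0.00295). Gsta1 was listed at 0, 0 and 1.04 in siNT and at 84.5, 103 and 64.8 in siMbnl1, and Gsta2 at 0 in all 3 siNT libraries and 26.1, 31.4 and 21.9 in siMbnl1. These 4 paralogs are similar in sequence, so reads may be split between them, and a gene listed at 0 gives no fold. In siFmr1 they stood at 12.9 ± 5.33 (Gsta4), 4.22 ± 1.46 (Gsta3), 6.86 ± 9.98 (Gsta1) and 4.66 ± 2.14 (Gsta2). Each was higher in siMbnl1 in the direct test, with limma adjusted p from 1.37e-05 for Gsta3 to 4.1e-04 for Gsta2.

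Hmox1 encodes the haem-degrading enzyme heme oxygenase 1. It rose from 6261, 4738 and 6006 to 11273, 13014 and 10139 (1.02, limma adjusted p = 0.00309), while siFmr1 stood at 4640 ± 215. Gclc, the catalytic subunit of the enzyme that limits glutathione synthesis, rose from 2239 ± 89.7 to 3360 ± 98.7 (0.59, limma adjusted p = 0.00458). Hmox1 and Gclc were chosen for mention after their values were seen. Gsto1 and Cbr3 were also higher in all 6 fits. Gclm, Nqo1, Txnrd1, Gstm1, Mgst1 and the ferritin genes Ftl1 and Fth1 were higher in the 6-library fit, and each of these 7 lost its call without siMbnl1 library 1 and without siMbnl1 library 2. In the direct test 25 of 41 genes were higher in siMbnl1 than in siFmr1 and 8 lower. The antioxidant response element read by NRF2 has the core TGACNNNGC, searched on both strands in the 250 bases before and 50 after the start of each gene (RefSeq, GRCm38.p6). It was found in 4 of the 12 called genes with a promoter in the table (Gclm, Txnrd1, Gsta3 and Mgst1), in 10 of 35 tested genes of the list and in 1989 of 11979 of all tested genes (16.6%). The Gsta3 promoter is shown as the one with the motif among the strongly raised transferase genes, chr1:21240335-21240584 on the + strand, with the match in capitals ending 112 bases before the start.
Gsta3 promoter: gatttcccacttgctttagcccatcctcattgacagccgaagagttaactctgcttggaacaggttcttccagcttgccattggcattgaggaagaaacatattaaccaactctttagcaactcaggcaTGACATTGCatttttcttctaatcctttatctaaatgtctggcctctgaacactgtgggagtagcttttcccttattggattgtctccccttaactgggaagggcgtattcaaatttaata
The match is a description of the letters and no measure of binding.

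Ribosomal protein and oxidative phosphorylation genes were higher, but here 1 control library moved with the result. Of 79 cytosolic ribosomal protein genes 17 rose (21.5%, against 7.9% of all genes) and none fell (median 0.59). Of 77 nuclear-encoded oxidative phosphorylation genes 15 rose (19.5%) and none fell (median 0.48). In each list 62 genes were not called. Transcripts of both lists are short: the median exon length was 1770 and 1756 bases against 4098 for all genes. By library, the ribosomal list stood at 0.43, -0.61 and 0.17 in siNT and 0.73, 0.50 and 0.55 in siMbnl1, relative to the siNT mean. The oxidative phosphorylation list stood at 0.42, -0.66 and 0.21 against 0.59, 0.46 and 0.41. The second siNT library was thus the low one, the same library that was low on short transcripts in general. Over the quartile of shortest genes 10.8% were higher and 2.31% lower in siMbnl1 (median 0.20), and over the quartile of longest genes 5.49% were higher and 11.1% lower (median -0.09). The part of this library in the list changes was not tested beyond leaving it out.

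Counts for these 2 lists moved widely. Without siMbnl1 library 1, 2 or 3 1, 1 and 2 ribosomal genes were higher, and without siNT library 1, 2 or 3 61, 36 and 11. For oxidative phosphorylation the counts were 0, 0 and 1, and 43, 27 and 9. Rpl26, a large-subunit protein gene, passed in all 6 fits: 881, 762 and 1027 in siNT and 2643, 2118 and 2128 in siMbnl1 (1.37, limma adjusted p = 0.00112). Rpl38 (5180 to 13620 in siNT, 22738 to 27798 in siMbnl1) and the ATP synthase gene Atp5k (579 to 1758 against 3050 to 3688) were higher in the 6-library fit. Rpl38 lost its call when any of the siMbnl1 libraries was left out and Atp5k without the first or second. Their siFmr1 means were 21645 ± 1246 (Rpl38), 2878 ± 177 (Atp5k) and 2022 ± 50.6 (Rpl26), nearer to siMbnl1 than to siNT. Both lists also had medians above siNT in siFmr1, 0.44 and 0.46.

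**Figure D4:**
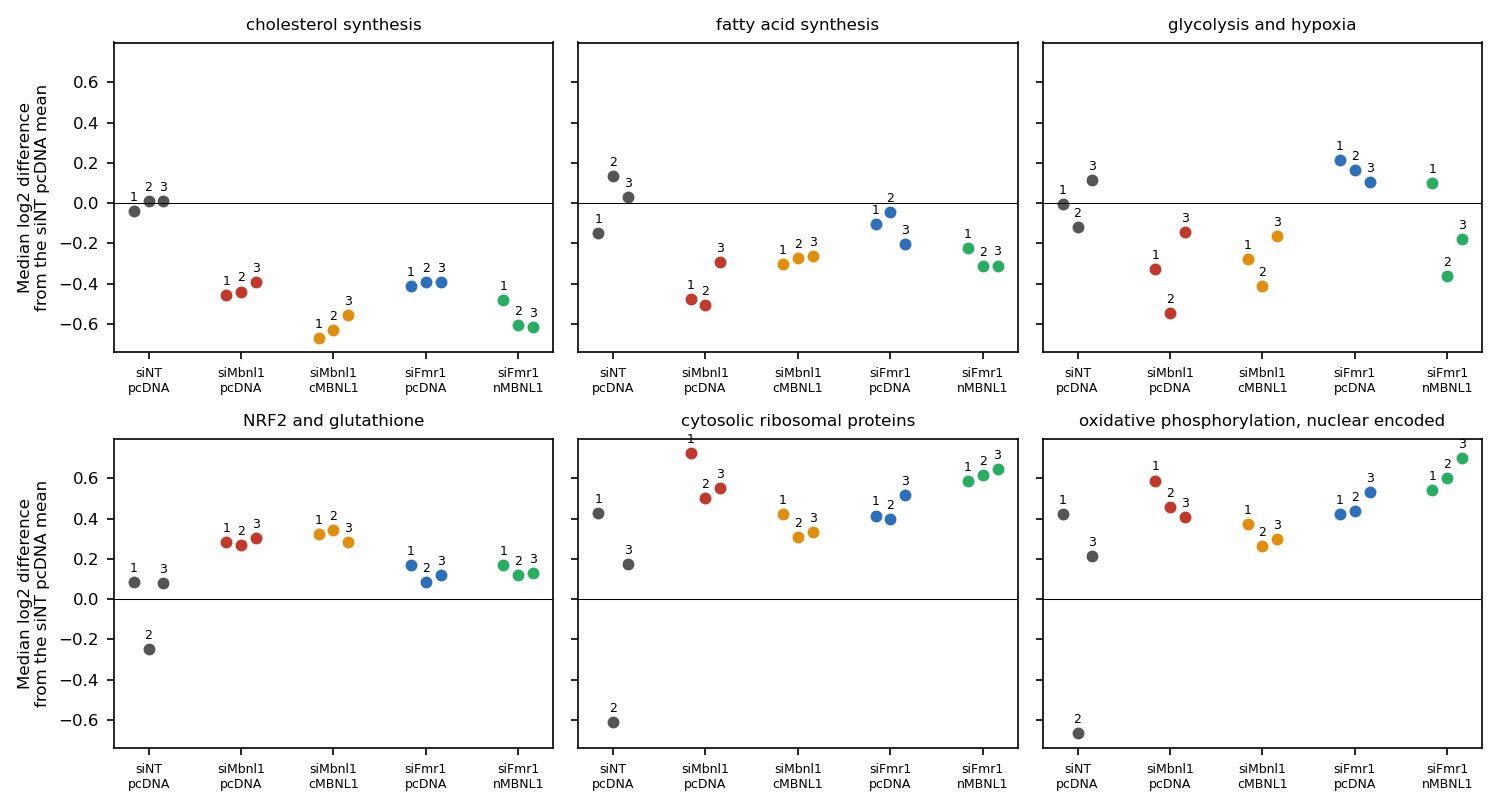
Median log2 difference from the siNT pcDNA mean (vertical axis) over the genes of 6 lists, with 1 point per library and its replicate number, in the 5 co-transfection groups. The cholesterol list lies at -0.46 to -0.39 in siMbnl1 pcDNA, and the second siNT library lies at -0.61 for ribosomal and -0.66 for oxidative phosphorylation genes.

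Glycolysis and hypoxia-response genes were lower, with 8 of 36 down (22.2% against 7.23% of all genes), 2 up and a median of -0.33. Many genes of this list are targets of HIF, the transcription factor that is active at low oxygen. Kdm3a, a histone demethylase gene of that kind, fell from 6442, 5445 and 5320 to 2502, 2324 and 2887 (-1.16, limma adjusted p = 0.00112). Eno2, the neuronal enolase, fell from 4007, 3562 and 4544 to 1890, 1831 and 2386 (-0.99, limma adjusted p = 0.00303), and the collagen prolyl hydroxylase gene P4ha1 from 4908 ± 221 to 2599 ± 585 (-0.94, limma adjusted p = 0.0061). Gpi1, Pfkm, Aldoc, Bnip3 and P4ha2 were the other genes lower, each with a call lost without siMbnl1 library 2, which for Pfkm was the only such library. Pfkfb3, which makes the activator of phosphofructokinase, moved the other way, from 1797 ± 112 to 2923 ± 18.4 (0.70, limma adjusted p = 0.00265), and Higd1a rose with a call lost when the third siNT library or any of the siMbnl1 libraries was left out. In siFmr1 the list median was 0.19, and in the direct test 31 of 36 genes were lower in siMbnl1 than in siFmr1 (against 23.6% of all genes) and 1 higher. The number lower than siNT was 4, 3 and 6 without siMbnl1 library 1, 2 or 3 and 9, 17 and 4 without siNT library 1, 2 or 3.

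Lists of neuronal genes and of transcription factors moved in part. Of 29 genes of the list of neuronal differentiation and transcription factors 8 rose (27.6%, against 7.9% of all genes) and none fell, with a median of 0.26. Set against the same siNT libraries, the list median was 0.27 in siFmr1 pcDNA. In the direct test 12 genes of the list were higher in siMbnl1 than in siFmr1 and 11 lower. Myc, the growth-promoting transcription factor, went from 4807, 4842 and 5550 to 11388, 12350 and 11454 (1.21, limma adjusted p = 5.46e-04), with siFmr1 at 6156 ± 420. Id2 and Id4, which encode inhibitors of basic helix-loop-helix factors, rose from 614 ± 124 to 1377 ± 170 (1.18, limma adjusted p = 0.00345) and from 399 ± 42.6 to 890 ± 82.5 (1.16, limma adjusted p = 0.00171). Sox4, Id1, Prox1, Hes5 and Hand2 completed the 8, of which Prox1 was called in all 6 fits. Sox4, Id1, Hes5 and Hand2 were lost when any of the siMbnl1 libraries was left out, and Sox4 and Id1 also without siNT library 3. The count was 4 when any of them was left out and 8, 11 and 6 without siNT library 1, 2 or 3.

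Neuronal cytoskeleton genes showed 4 lower (12.9%, against 7.23% of all genes) and none higher of 31, and voltage-gated channel genes 5 lower (15.2%) and none higher of 33. Without siMbnl1 library 1, without siMbnl1 library 2 and without siNT library 3 these counts were 1 for the cytoskeleton list and 0 for the channel list. Among synaptic vesicle genes 7 of 40 rose (17.5%, against 7.9% of all genes) and 5 fell (12.5%). The rises numbered 3, 2 and 3 and the falls 1, 1 and 3 without siMbnl1 library 1, 2 or 3. Cplx1, encoding the SNARE-binding complexin 1, went from 3459 ± 377 to 7046 ± 268 (1.03, limma adjusted p = 0.00112), and the vesicular monoamine transporter gene Slc18a2 from 1342 ± 104 to 2421 ± 215 (0.85, limma adjusted p = 0.00261). Unc13a, a vesicle priming factor, fell from 6900, 8963 and 9303 to 3963, 3288 and 4419 (-1.11, limma adjusted p = 0.00297). In the direct test against siFmr1, where 23.6% of all genes were lower in siMbnl1 and 23.6% higher, 24 of 32 neuronal cytoskeleton genes, 25 of 55 guidance genes, 24 of 42 synaptic genes and 16 of 33 channel genes were lower in siMbnl1, with 1, 5, 3 and 2 higher. Relative to siNT, the medians of these 4 lists in siFmr1 were 0.35, 0.48, 0.58 and 0.37, and in siMbnl1 they were -0.06, 0.08, -0.08 and -0.20.

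**Figure D5:**
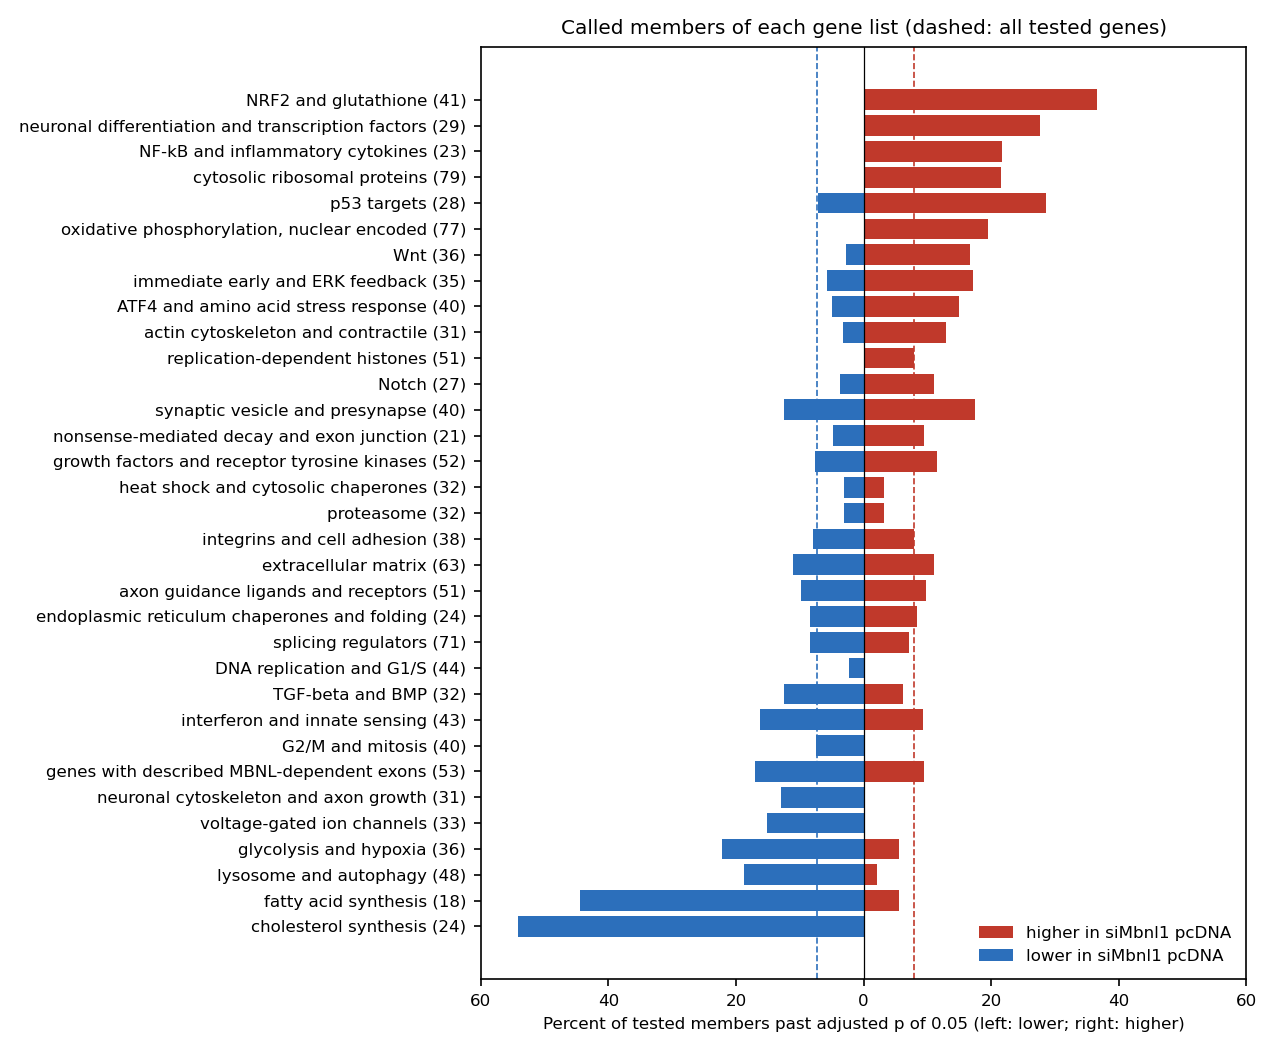
Percentage of tested members of each gene list (number tested in brackets) called higher (red, to the right) or lower (blue, to the left) in siMbnl1 pcDNA than in siNT pcDNA, with dashed lines at the share over all tested genes (7.9% higher and 7.23% lower). Cholesterol synthesis has 54.2% of its genes lower and the NRF2 and glutathione list 36.6% higher.

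Adhesion genes were called at about the share of all genes, with 3 higher and 3 lower of 38 (7.89% each, against 7.9% and 7.23%). Ncam1, a homophilic neural adhesion molecule, fell from 3544, 5224 and 4074 to 2191, 2192 and 2359 (-0.91, limma adjusted p = 0.00484). Itgb3, an integrin chain, rose from 586, 973 and 612 to 1649, 1687 and 1801 (1.28, limma adjusted p = 0.00368), and the hyaluronan receptor gene Cd44 from 13.3 ± 3.25 to 55.0 ± 13.4 (1.97, limma adjusted p = 0.0064). Vcam1, a cytokine-inducible adhesion gene, rose from 123 ± 25.4 to 268 ± 18.4 (1.13, limma adjusted p = 0.00624), and in siFmr1 was at 30.3 ± 8.68. Of 63 matrix genes 7 rose and 7 fell (11.1% each). The rises numbered 2, 4 and 2 and the falls 2, 2 and 7 without siMbnl1 library 1, 2 or 3. Fbn1 (1.22) and Eln (1.02), which encode the elastic fibre proteins fibrillin 1 and elastin, rose, whereas the basement membrane genes Agrn (-0.91) and Lama5 (-1.09) fell. The guidance receptor gene Nrp2 rose from 2410 ± 553 to 4628 ± 408 (0.96, limma adjusted p = 0.00624).

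Signalling and inflammatory lists held further named changes. Of 23 NF-kB and cytokine genes 5 rose (21.7%, against 7.9% of all genes) and none fell. The 5 were Ccl2, Ccl7, Vcam1, Csf1 and Il1b. The count was 3 when any of the siMbnl1 libraries was left out and 8, 5 and 3 without siNT library 1, 2 or 3. Interferon and sensing genes gave 4 higher (9.30%) and 7 lower (16.3%) of 43, which became 1, 1 and 1 higher and 1, 1 and 2 lower without siMbnl1 library 1, 2 or 3. They included Gbp3 at 78.4 ± 3.78 and 255 ± 22.9 (1.69, limma adjusted p = 0.00111) and Ddx58, the RIG-I gene, at 631 ± 74.5 and 292 ± 33.5 (-1.11, limma adjusted p = 0.00275). In the TGF-beta and BMP list 2 rose (6.25%) and 4 fell (12.5%) of 32, with 1 fall left when any of the siMbnl1 libraries was left out. Smad7, the inhibitory SMAD induced by this pathway, rose from 1867, 2545 and 2368 to 4727, 5273 and 4869 (1.14, limma adjusted p = 0.0016), with siFmr1 at 1592 ± 91.1. Smad6 (0.70) also rose, lost without the first or second siMbnl1 library. Kitl, encoding stem cell factor, was listed at 0, 0.997 and 0 in siNT and at 43.4, 83.3 and 46.9 in siMbnl1. Ier5 (1.06) and Egr2 (1.40) rose among 35 immediate early and ERK feedback genes, of which 6 were higher (17.1%) and 2 lower (5.71%), with 2 higher when any of the siMbnl1 libraries was left out.

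Of 48 lysosome genes 9 fell (18.8%, against 7.23% of all genes) and 1 rose (2.08%, against 7.9%), with a median of -0.12. Set against the same siNT libraries, the list median was -0.32 in siFmr1 pcDNA. In the direct test 26 genes were higher in siMbnl1 than in siFmr1 and 9 lower. Gaa, the acid glucosidase gene, fell from 18929 ± 2355 to 10475 ± 891 (-0.85, limma adjusted p = 0.00443). In siFmr1 it stood at 9496 ± 1092, and the direct difference from siMbnl1 did not pass the threshold (limma adjusted p = 0.132). The count of lower genes was 3, 4 and 5 without siMbnl1 library 1, 2 or 3 and 12, 15 and 4 without siNT library 1, 2 or 3.

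Few cell-cycle and protein-folding genes were called. None of 44 DNA replication genes rose and 1 fell (2.27%), and of 40 mitosis genes none rose and 3 fell (7.5%, a count of 0 when any of the siMbnl1 libraries was left out). The log2 difference was below 0 in 34 of the 40 mitosis genes, with a median of -0.16, and the list stood at -0.16 in each siMbnl1 library against 0.05, 0.03 and -0.08 in siNT. Proteasome (32 genes) and heat shock (32 genes) lists had 1 higher and 1 lower each. Among 71 splicing regulators 5 rose (7.04%) and 6 fell (8.45%), shares near those of all genes, with Rbm5, a spliceosomal regulator of exon definition, falling from 3226 ± 194 to 2127 ± 128 (-0.60, limma adjusted p = 0.0055). Of 53 genes with described MBNL-dependent exons 5 rose (9.43%) and 9 fell (17.0%) in level, and the falls numbered 1, 1 and 3 without siMbnl1 library 1, 2 or 3.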

How the data were processed

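RNA of N2a cells was sequenced from libraries made with a directional kit, per the labels' protocols. Submitters' processing notes name CASAVA, FastQC 0.11.8, Trimmomatic 0.39, Bowtie2 2.3.5, STAR 2.6.1, RSEM 1.3.1 and DESeq2 1.16.1 with the build GRCm38, without their roles. Gene values are a signal deposited by the authors as normalized counts, with no method stated in the table. Of 23091 rows, 4 with a repeated name were dropped. Values were tested as log2(value + 1) with limma 3.58.1 in R 4.3.3, with an intensity trend, on the 6 libraries, keeping genes whose mean reached 1, with Benjamini-Hochberg adjustment and a threshold of 0.05. The comparison with siFmr1 pcDNA was fitted in the same way on its own 6 libraries.

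Splicing tables hold the other values: junction reads, form lengths and inclusion differences in the format of rMATS, per the file headers, whose version is not given in the sources used here. Deposited inclusion differences were recomputed from the junction reads and matched within 0.002. The authors' deposited q-values (FDR p-values) were used only for comparison. Events were re-tested with a quasi-binomial model (dispersion moderated across events and at least 1). Those tests were checked on simulated data. Exon sequences came from GENCODE M21 transcripts and the promoter from RefSeq.

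Named genes were Mbnl1, Fmr1, the 12 largest called rises and 12 largest called falls with a mean of at least 50 and groups that do not overlap, and up to 4 called members per list and direction (every called member where at most 6 were called). Named exons were the 8 largest rises and 8 largest falls and called events in the lists of splicing regulators and described MBNL-dependent exons. Members, gene lists and rules were chosen with earlier results of these data known. Whether the shared replicate numbers pair the libraries was checked on deviations from the group means: correlations were 0.03, 0.00 and 0.00, so they were not treated as pairs. A few list members and 1 exon sequence are not reported here. Alternatives tried are in the closing section.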

Additional observations from a re-analysis of the deposited data

How the results depend on the processing

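The fall of Mbnl1 kept its direction and its call under every alternative run, with log2 values from -1.66 to -1.46. The number of genes called (2428) was 5352 with all 15 libraries in 1 fit, 511 when a log2 change of 1 in size was also required, and 461 to 3921 with 1 library left out. Another pseudocount, filter or TMM rescaling gave 2291 to 2544. A replicate block gave 2579, and the replicate numbers do not pair the libraries. It raised the ribosomal count from 17 to 39 and the oxidative phosphorylation count from 15 to 28. The direct comparison with siFmr1 pcDNA (7665 genes) stayed within 1.5 times of that count, at 5751 in the fit of 15 libraries, 7044 with the block and 6465 to 7484 with 1 library left out.

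Skipped exons called (276) were 1379 by the deposited rMATS call, 104 at a minimum difference of 20 points, 274 or 277 with other read minimums, and 66 to 415 with 1 library left out. The direct exon comparison (669) gave 616 to 684 with other read minimums and 473 to 647 with 1 library left out. By the rMATS call there were 80 alternative 3′ sites, 94 alternative 5′ sites, 1777 mutually exclusive exons and 30 retained introns, and with 1 library left out 1 to 12, 5 to 12, 28 to 612 and 2 to 8. No result reversed. For named genes, 345 of 1164 values with 1 library left out missed the threshold and 9 of 1160 under other settings. For named exons 94 of 261 did. No paired analysis of exon events was possible because the replicate lists carry no numbers. A count model was not run, since 87.9% to 92.5% of low values fell within 0.05 of a whole read and whole reads could not be recovered. Exon shifts under 10 points were left out by the call rule, whatever their p, and no detection limit was measured.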

Other observations

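Further gene groups held called members. Of 36 Wnt pathway genes 6 rose (16.7%, against 7.9% of all genes) and 1 fell, and the rises numbered 2, 1 and 3 without siMbnl1 library 1, 2 or 3 and 4, 9 and 5 without siNT library 1, 2 or 3. Fzd2, a frizzled receptor gene, went from 154 ± 32 to 342 ± 20.9 normalized counts (log2 difference 1.16, limma adjusted p = 0.0055) and Fzd6 from 1290 ± 50.4 to 822 ± 72.6 (-0.65, limma adjusted p = 0.00599). In siFmr1 pcDNA they stood at 328 ± 15.2 and 875 ± 5.35, close to siMbnl1 (limma adjusted p = 0.668 and 0.32 for the direct difference). Among 28 p53 target genes 8 rose (28.6%) and 2 fell (7.14%). The falls were Ccng1 (-0.66) and Plk3 (-0.72), while the number of rises was 0, 0 and 1 without siMbnl1 library 1, 2 or 3 and 7, 8 and 2 without siNT library 1, 2 or 3. Cebpb, a transcription factor gene of stress and inflammation, rose from 2476, 2798 and 2977 to 4422, 4708 and 4351 (0.71, limma adjusted p = 0.00348), while siFmr1 stood at 2349 ± 99.3. It was 1 of 6 genes that rose among 40 of the ATF4 and amino acid response (15%), where 2 fell (5%), and the rises numbered 1, 1 and 2 without siMbnl1 library 1, 2 or 3.

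Replication-dependent histone genes gave 4 higher (7.84%, near the 7.9% of all genes) and none lower of 51, with 2 higher when any of the siMbnl1 libraries was left out. Hist1h2bc went from 118, 84.9 and 118 to 438, 354 and 467 (1.97, limma adjusted p = 0.00108), with siFmr1 at 488 ± 46.6. Growth factor and receptor genes gave 6 higher (11.5%) and 4 lower (7.69%) of 52, with 3 higher when any of the siMbnl1 libraries was left out and 0, 0 and 2 lower without siMbnl1 library 1, 2 or 3. Hbegf, encoding a ligand of the EGF receptor, rose from 280 ± 42.6 to 538 ± 21.3 (0.95, limma adjusted p = 0.00484) and Igfbp4, which binds insulin-like growth factors, from 1300 ± 168 to 2433 ± 422 (0.90, limma adjusted p = 0.0064). Igfbp4 was higher still in siFmr1, at 4220 ± 354 (limma adjusted p = 6e-06 for the direct difference), whereas Hbegf was at 304 ± 21.3 there.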
